A study of Mus musculus with 4 samples.

Results

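The cells described here were CD8+ T cells (Tc) from the spleen that carried RNA of both Tcf7 and Slamf6. They carried no RNA of Mki67 and Top2a, the gene pair that marks dividing cells. They numbered 272 of the 4267 CD8+ Tc and of the 11632 cells kept in the series. A cell was kept with at least 500 genes, at least 1000 unique molecular identifiers (UMIs, each standing for 1 captured RNA molecule) and at most 10% mitochondrial UMIs. It was taken as a CD8+ Tc with at least 1 UMI of Cd3d, Cd3e or Cd3g, at least 1 UMI of Cd8a or Cd8b1, and none of Cd4 or of the erythroid gene Klf1. Members were then selected on the measured UMIs of Tcf7, Slamf6, Mki67 and Top2a. They had at least 1 of each of the first pair and 0 of the second. The levels of these genes in the members are thus a property of the choice and were not tested between kinds of cell. The members are called Tcf7+Slamf6+ cells below, and the other CD8+ Tc without Mki67 and Top2a UMIs, 2167 in number, are the other non-cycling CD8+ Tc.

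All 4 mice were BALB/c recipients that underwent lethal total body irradiation and received 10000 WEHI-3B cells, a myelomonocytic leukemia line of BALB/c origin, together with allogeneic bone marrow. On day 2 they received 200000 splenic Tc from C57BL/6 donors, and spleen Tc were isolated on day 23. Donors were Havcr2fl/fl in 2 mice, here control 1 and control 2, and Havcr2fl/fl;E8icre/+ in the other 2 mice, here KO 1 and KO 2, all named after their labels. Both genotypes carried the floxed alleles of Havcr2, the gene of the inhibitory receptor TIM-3, and E8i-cre, driven by an enhancer of the Cd8 locus, is meant to delete it in CD8+ cells. Bone marrow and Tc of a mouse came from donors of the same genotype, and 1 library was made per mouse. Ages were given only as a range of weeks for all mice of the work. Per the labels, Tc were enriched with a pan-T isolation kit and stained with an oligo-tagged antibody against the donor haplotype H-2Kb. The publication also speaks of sorted donor Tc, and which step these libraries went through is not settled by the sources used here.

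Precursor exhausted CD8+ Tc (TPEX) are found in chronic infection, in tumors and after stimulation by alloantigen. They divide slowly, renew themselves and give rise to terminally exhausted cells (TTEX), which carry TIM-3 and several other inhibitory receptors. TCF-1, the product of Tcf7, is the transcription factor that maintains them, and SLAMF6 is a surface receptor by which they are sorted. Other genes linked with TPEX are Id3, an inhibitor of E protein transcription factors, Xcl1, a chemokine that draws cross-presenting dendritic cells, and Il7r, the receptor chain for the survival cytokine IL-7.

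The number of Tcf7+Slamf6+ cells was 34 in control 1, 39 in control 2, 79 in KO 1 and 120 in KO 2, out of 493, 1272, 1542 and 960 CD8+ Tc. Their summed gene UMIs were 226361, 138728, 382940 and 835892 in the same order. The median was 6570, 3364, 4428 and 6438 UMIs per member, against 6025, 2707, 3955 and 5430 in the other non-cycling CD8+ Tc, so that the members were the deeper cells in every library. Members also had the higher median share of mitochondrial UMIs in every library, 2.60%, 4.40%, 4.95% and 4.21% against 1.94%, 3.02%, 3.46% and 2.81%. Each member carried UMIs of the donor tag, with a lowest value of 342. The medians were 1936, 1185, 1637 and 2034 tag UMIs in members and 2576, 2680, 3474 and 1969 in cells without a CD3 UMI. No limit between tagged and untagged cells was set, so donor origin of single cells was not tested. No member shared its cell barcode with another library, while 17 of all kept barcodes were found in more than 1 library. Of the 272 members, 8 were among the cells with the highest doublet scores of their library. Over 100 globin UMIs each were held by 3 members, 2 in KO 1 and 1 in KO 2.

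Of these libraries, 2 went against the rest or against their label. The CD8+ Tc of the library labelled KO 1 kept Havcr2, with 54.4 TMM-normalized UMI counts per 1000000 (CPM) in its other non-cycling cells, against 12.6 in KO 2, 50.5 in control 1 and 118 in control 2. Havcr2 thus does not separate the genotypes in these cells. The sources used here do not name the floxed exons, and 3′ tags outside the deleted part would not show a deletion, so that every genotype difference below is a difference between libraries carrying those labels. The members of control 1 stood apart by several genes, among them Il7r and S1pr1 at their highest and Xcl1 at its lowest. Values without these libraries are given where they change a result.

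Of the TPEX markers that the choice did not use, all 3 were higher in Tcf7+Slamf6+ cells than in other non-cycling CD8+ Tc of the same mouse. Id3 (ENSMUSG00000007872, chromosome 4 of GRCm38, 136143497 to 136145755, plus strand) was at 99.1 CPM in the members of control 1, 249.9 in control 2, 145 in KO 1 and 208 in KO 2. In the other non-cycling cells Id3 was at 12, 17.6, 11.2 and 18.3 CPM. All member values lay above all other values (log2 fold change 3.56, SE 0.17, adjusted p = 3.2e-16). Il7r (ENSMUSG00000003882, chromosome 15, 9505788 to 9530176, minus strand) was at 950.4, 407, 621 and 512 CPM in the members and at 312, 122, 106 and 118 in the other cells. The highest member value and the highest other value both came from control 1 (log2 fold change 2.02, SE 0.13, adjusted p = 3.2e-13). Xcl1 (ENSMUSG00000026573, chromosome 1, 164931644 to 164935527, minus strand) was at 22.5, 243, 251 and 447 CPM in the members and at 16.4, 78.7, 26.0 and 100.3 in the other cells. The Xcl1 ranges overlapped because control 1 was low in both, with 5 UMIs in its members, but members were higher in each of the 4 mice (log2 fold change 2.25, SE 0.18, adjusted p = 1.1e-10).

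Each adjusted p here comes from edgeR's quasi-likelihood test on UMIs summed per library, with the mouse as a block and Benjamini-Hochberg adjustment over 8940 genes. The choice used the same 4 libraries and the same cells, so no library is an independent repeat of it. Tcf7 (chromosome 11, 52252371 to 52283014, minus strand) and Slamf6 (chromosome 1, 171917515 to 171953170, plus strand) made the choice and were not tested here.

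The same was seen as shares of cells after thinning each cell to 2000 UMIs, which left out 3 members and 147 other non-cycling cells. An Id3 UMI was found in 12.5%, 30.8%, 25.6% and 27.5% of the members of control 1, control 2, KO 1 and KO 2, against 1.41% to 3.24% of other non-cycling cells. The background of free RNA was read from cells without a CD3 UMI, whose median depth was 10050 to 16961 UMIs before thinning and of which 0.0436% to 0.312% had an Id3 UMI. An Xcl1 UMI was found in 3.12%, 20.5%, 26.9% and 30% of members against 2.07% to 6.67% of other cells. An Il7r UMI was found in 78.1%, 30.8%, 56.4% and 47.5% of members against 12.2% to 21.1% of other cells and 0.131% to 0.458% of the cells without CD3. Id3 and Il7r thus separated members from other cells in every library, while the Xcl1 share of control 1 members was within the range of the other cells. Unthinned, the Id3 shares were 35.3%, 43.6%, 30.4% and 50.8% of members.

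**Figure D1:**
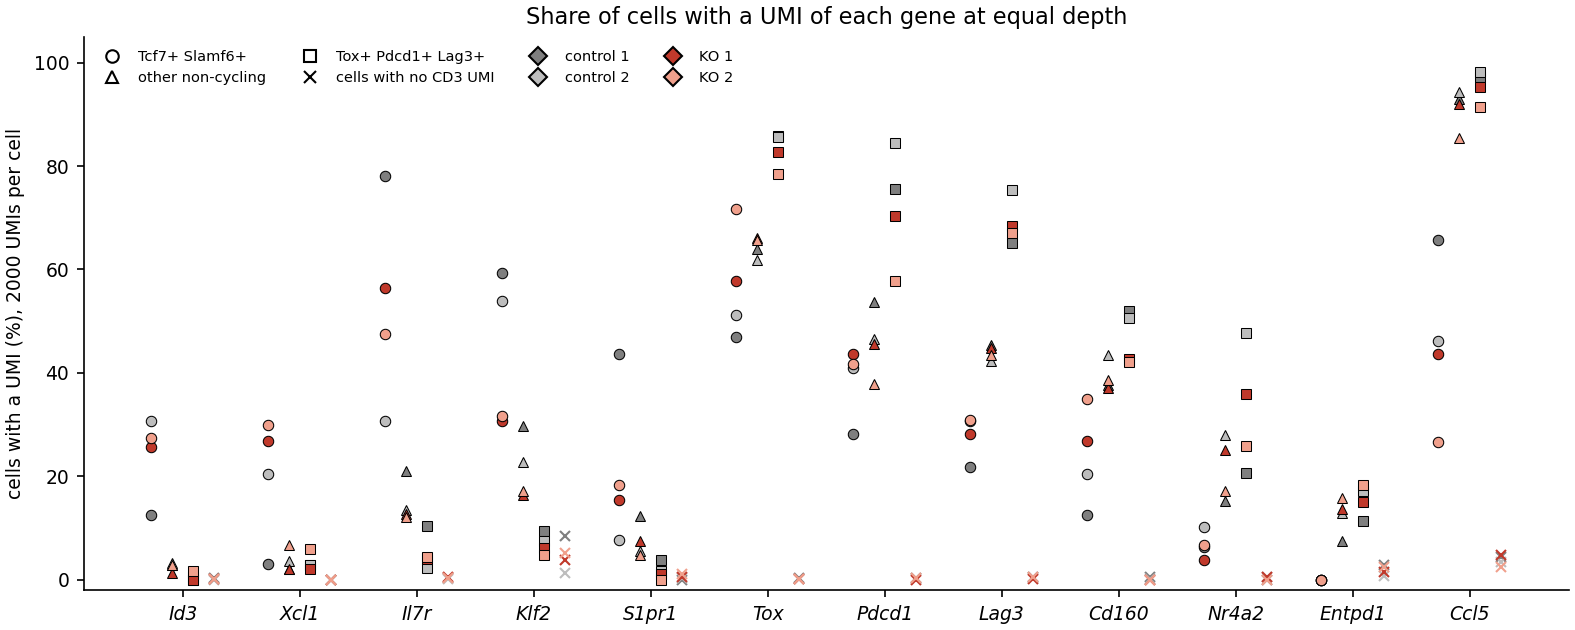
Percent of cells with at least 1 UMI of each gene (y axis) after thinning to 2000 UMIs per cell, for Tcf7+Slamf6+ cells (circles), other non-cycling CD8+ Tc (triangles), Tox+Pdcd1+Lag3+ cells (squares) and cells without a CD3 UMI (crosses), with 1 color per library. Id3 and Il7r lie highest in the Tcf7+Slamf6+ cells, Tox and Pdcd1 overlap with the other non-cycling cells, and Ccl5 falls from 85.3% to 94.3% in the other cells to 26.7% to 65.6%.

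Cells just inside and just outside the limits are given as a description. Pooled over libraries, the 28 members with a single UMI of each gene had 81.8 Id3 UMIs and 464 Il7r UMIs per 1000000, and the 244 members with more had 187 and 594. The 141 non-cycling cells with Tcf7 alone had 102 Id3 and 518 Il7r UMIs per 1000000, the 271 with Slamf6 alone 35.5 and 239.5, and the 1755 with neither 3.61 and 99.9. Cells with Tcf7 alone thus lay near the members in these genes, while their Ccl5 level of 11394 UMIs per 1000000 was between that of the members (5468 and 2553) and that of cells with neither (23843). Xcl1 was higher in the 28 members than in the 244, at 654.5 and 279 UMIs per 1000000. It was at 313 with Tcf7 alone, 73.8 with Slamf6 alone and 32.3 with neither. Another 94 cells had Tcf7, Slamf6 and a single UMI of Mki67 or Top2a, with 142 Id3 and 661 Il7r UMIs per 1000000, and 65 had more such UMIs, with 72.3 and 251. Of the 28 cells with a single UMI of each gene, Gzma gave 770.4 UMIs per 1000000, against 39.0 in the 244 others, and all 113 Gzma UMIs of these 28 cells came from 1 cell.

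Beyond the markers, 480 genes were higher (5.37% of those tested) and 487 were lower (5.45%) in Tcf7+Slamf6+ cells than in other non-cycling CD8+ Tc. Without control 1 the test called 1121 genes, without KO 1 it called 520 and without KO 2 it called 453. Of the stem-like transcription factors most rose, with 9 of 12 higher, none lower and a median log2 fold change of 1.03, where the median of all genes was 0.00. Lef1, the partner of TCF-1 from the same family, was at 158, 92.8, 95.7 and 81.7 CPM in the members of control 1, control 2, KO 1 and KO 2 and at 67.6, 22.2, 28.4 and 28.2 in the other cells. Each member value lay above all of the other values (log2 fold change 1.56, SE 0.18, adjusted p = 6.3e-08). Lef1 did not mark members alone. At 2000 UMIs its UMIs were found in 25%, 6.90%, 17.7% and 11.5% of the other non-cycling cells that carried Cx3cr1. The shares of members were 28.1%, 10.3%, 14.1% and 14.2%, so that members were the lower ones in KO 1. Bach2, a repressor that restrains effector differentiation, was at 31.5, 21.4, 62.1 and 43.3 CPM against 12.6, 13.0, 9.67 and 15.3 (log2 fold change 1.76, SE 0.29). Klf2, which controls migration genes, was at 833, 757, 393 and 286 CPM against 330, 314, 150 and 202. The Klf2 ranges overlapped across mice, but members were higher within each mouse (log2 fold change 1.12, SE 0.12, adjusted p = 5.6e-08). Klf2 was also seen in other cells. At 2000 UMIs a Klf2 UMI was found in 76.8%, 51.7%, 59.4% and 55.7% of the other non-cycling cells that carried Cx3cr1, against 59.4%, 53.8%, 30.8% and 31.7% of members. Myb, which sustains self-renewal, rose by 2.32 on the log2 scale, Bcl6, an antagonist of Blimp-1, by 1.5, Klf3 by 0.93, the chromatin organizer Satb1 by 0.90 and Foxo1, which activates Il7r, by 0.59.

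Receptors of memory cells and of homing to lymphoid tissue rose in 11 of 14 cases, with a median of 0.98. Ccr7, the chemokine receptor for entry into lymph nodes, gave 29 UMIs in all members and 10 in the other cells (log2 fold change 4.22), and Cxcr5, the receptor for entry into B cell follicles, 39 and 13 (3.9). S1pr1, needed to leave lymphoid tissue, was at 203, 50.0, 93.1 and 94.0 CPM against 80.2, 36.6, 37.2 and 39.7 (log2 fold change 1.22, SE 0.16). Control 1 was highest in both kinds of cell, and other non-cycling cells that carried Cx3cr1 had S1pr1 UMIs in 32.1%, 19.0%, 27.1% and 14.8% at 2000 UMIs, against 43.8%, 7.69%, 15.4% and 18.3% of members. Cd28 rose by 0.86, Cxcr3 by 0.79, Cxcr4 by 1.10, Il18r1 by 0.67 and the gut-homing integrin chain Itgb7 by 0.39. Il2rb, the receptor chain shared by IL-2 and IL-15, went the other way, at 311, 286, 396 and 313 CPM against 579, 640, 835 and 581 (log2 fold change −1.0, SE 0.11).

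Of 13 tested surface and secreted genes linked with precursor cells, 10 rose and 1 fell, with a median of 1.31. Tnfsf8, the CD30 ligand, was at 144, 171, 331 and 390 CPM in the members and at 73.9, 92.6, 53.8 and 134 in the other cells (log2 fold change 1.65, SE 0.17). Crtam, an adhesion receptor of activated Tc, rose by 2.14, Cd200, a ligand that restrains myeloid cells, by 1.72, the tetraspanin gene Cd9 by 1.57, Gpr183, an oxysterol receptor that guides cells within lymphoid tissue, by 1.31, and Emb by 1.31. The costimulatory receptors Icos and Tnfrsf4 rose by 1.00 and 0.88. The Tnfrsf4 value rested on 3 mice, since members of control 1 were at 18 CPM and its other cells at 49.2. The gene that fell was Il21r, at 49.6, 71.4, 75.0 and 104 CPM against 100.4, 118, 138 and 143 (log2 fold change −0.68, SE 0.15).

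**Figure D2:**
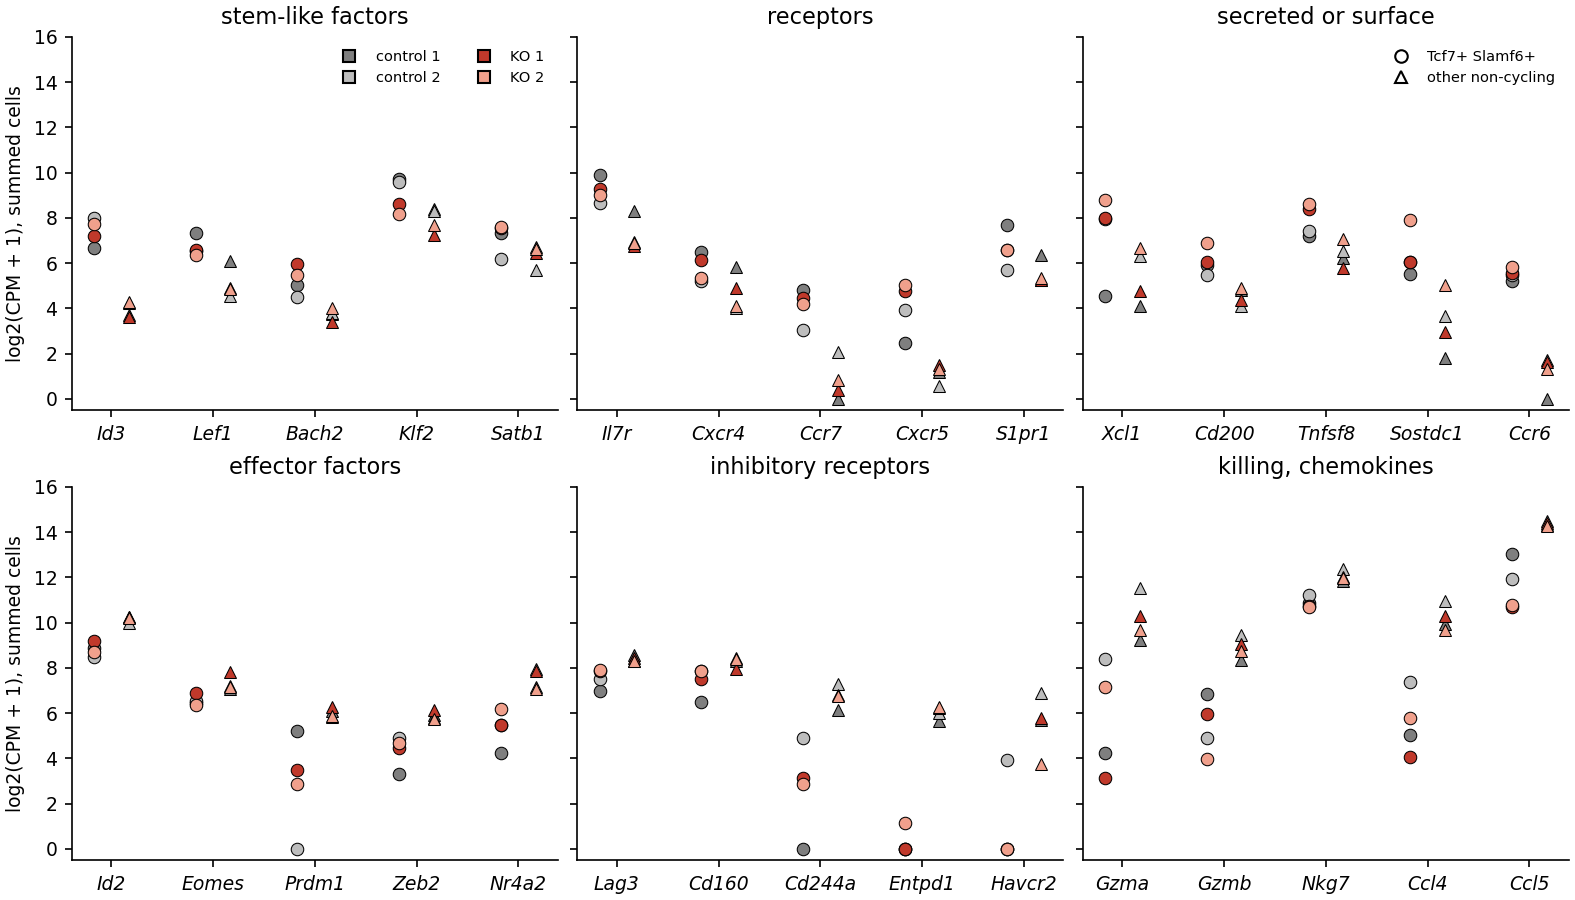
Level of 30 genes as log2(CPM + 1) of summed cells (y axis), with 1 circle per library for Tcf7+Slamf6+ cells and 1 triangle per library for other non-cycling CD8+ Tc of the same mouse. The upper panels hold genes that were higher in the Tcf7+Slamf6+ cells and the lower panels genes that were lower in them. Within a mouse (same color) circles lie above triangles in the upper panels, by the least for Xcl1 in control 1 (dark grey, 22.5 against 16.4 CPM), and below them in the lower panels.

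Transcription factors of effector and exhausted cells were lower in 8 of 14 cases and higher in none, with a median of −0.67. Id2, an inhibitor of E proteins that goes with effector fate, was at 468, 357, 574 and 414 CPM in the members and at 1208, 998, 1224 and 1170 in the other cells. The groups did not overlap (log2 fold change −1.35, SE 0.10, adjusted p = 7.0e-12). Prdm1, which encodes the effector factor Blimp-1, gave 8, 0, 4 and 5 UMIs in the members of control 1, control 2, KO 1 and KO 2 (log2 fold change −2.50), and Zeb2, a factor of short-lived effector cells, fell by 1.43. Nr4a2, a factor induced by antigen receptor signals, was at 18, 42.8, 44.0 and 70.5 CPM against 142, 243, 233 and 132 (log2 fold change −1.75, SE 0.20). Eomes, a T-box factor of effector and exhausted cells, fell by 0.80, Runx3, which drives the CD8 killer program, by 0.76, Bhlhe40 by 0.57 and Ikzf3 by 0.49.

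Tox, the transcription factor that establishes exhaustion, was at 405, 436, 510 and 805 CPM in the members and at 669, 532, 666 and 699 in the other cells. The ranges overlapped, and the log2 fold change of −0.27 (SE 0.12, adjusted p = 0.15) did not pass the test. Pdcd1, which encodes PD-1, was at 171, 214, 313 and 329 CPM against 424, 346, 352 and 311 (log2 fold change −0.42, SE 0.15, adjusted p = 0.062). KO 2 alone had more Pdcd1 in its members than in its other cells. At 2000 UMIs per cell, a Tox UMI was found in 46.9%, 51.3%, 57.7% and 71.7% of members, against 61.8% to 66.1% of other non-cycling cells and at most 0.312% of cells without CD3. For Pdcd1 the shares were 28.1%, 41.0%, 43.6% and 41.7% of members, 37.8% to 53.7% of other cells and at most 0.323% of cells without CD3. Set against the name of precursor exhausted cells, Id3 and Il7r were found in a larger share of members than of other non-cycling cells in all 4 libraries. Tox and Pdcd1 were far above the cells without CD3 in members and other non-cycling cells alike, and so do not set members apart. Of further genes of exhausted cells, Nr4a2, Lag3, Cd160, Entpd1 and Havcr2 were lower in the members. Xcl1 was found in a larger share of members than of other non-cycling cells in each library. In control 1 this rested on 1 of 32 members, 3.12% against 2.07%.

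Among the inhibitory receptors, 6 of 11 fell and 1 rose, with a median of −0.77. Lag3 was at 126, 178, 228 and 236 CPM against 376, 319, 349 and 313, with no overlap (log2 fold change −0.77, SE 0.14, adjusted p = 0.00013). Cd160 was at 90.1, 228, 178 and 229 CPM against 316, 342, 245 and 334 (log2 fold change −0.74, SE 0.14). Cd244a, which encodes the receptor 2B4, fell by 3.77 and Cd38, an ectoenzyme of exhausted cells, by 1.94. Entpd1, which encodes CD39, the ectoenzyme that degrades extracellular ATP, gave 1 UMI in all members and 655 in the other cells. This was a ratio of 0.00921 per UMI sequenced, with a counting interval of 0.000233 to 0.0515. Counting intervals take each UMI as an independent draw and leave out the spread between cells and mice. Havcr2 (chromosome 11, 46454935 to 46481255, plus strand) gave 0, 2, 0 and 0 UMIs in the members of control 1, control 2, KO 1 and KO 2 and 80, 254, 180 and 33 in the other cells, a ratio of 0.0221 with a counting interval of 0.00266 to 0.0800 over all libraries. Without KO 2 the ratio was 0.0359 (0.00434 to 0.130), and in control 2, the library with both UMIs, it was 0.122 (0.0147 to 0.444). Members of both genotypes were thus at or near 0 for the deleted gene, and the members themselves hold no check of the deletion. The receptor that rose was Btla, at 22.5, 42.8, 41.4 and 34.6 CPM against 11.4, 10.7, 15.7 and 13.7 (log2 fold change 1.40, SE 0.29). Tigit gave 11 UMIs in all members and did not pass the test (log2 fold change −0.69, adjusted p = 0.45), nor did Ctla4 (0.16, adjusted p = 0.80).

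Genes of killing were lower as well, in 8 of 10 cases, with a median of −1.30. Nkg7, a protein of cytotoxic granules, was at 1851, 2413, 1715 and 1671 CPM in the members and at 3667, 5240, 4152 and 3966 in the other cells, with no overlap (log2 fold change −1.16, SE 0.06, adjusted p = 1.1e-14). Granzyme B, from Gzmb, was at 113, 28.6, 62.1 and 14.8 CPM against 320, 707, 527 and 424 (log2 fold change −3.33, SE 0.25). Gzma was at 18, 336, 7.76 and 142 CPM against 596, 2963, 1238 and 812 (log2 fold change −3.65, SE 0.28). A single cell held 44 of the 47 Gzma UMIs of control 2 members and another held 113 of the 115 of KO 2 members. Perforin, from Prf1, fell by 2.10, the death ligand gene Fasl by 2.94 and the granzyme K gene Gzmk by 1.43, while Gzmm was higher by 1.58 from 27 UMIs in all members. Gzmk went the other way in control 1, with 41 of 226361 UMIs in its members and 189 of 1599032 in its other cells. At 2000 UMIs per cell, Gzmk was found in 21.9% of control 1 members and 13.6% of its other cells. Unthinned, these shares were 29.4% and 32.9%. Members of control 2, KO 1 and KO 2 were lower in Gzmk. Of 9 tested cytokines and chemokines 5 fell and 1 rose, with a median of −2.44. Ccl5, the most abundant of them, was at 8450, 3884, 1658 and 1744 CPM in the members and at 20270, 23000, 21680 and 19710 in the other cells (log2 fold change −2.77, SE 0.19). Ccl3 fell by 4.50, Ccl4 by 4.43, Csf1 by 2.43 and Ifng by 2.31, and the gene that rose was the lymphotoxin gene Lta, from 17 UMIs in all members.

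Receptors of effector and tissue-resident cells were split, with 2 of 10 higher and 5 lower. Cxcr6, which guides cells into tissues, was at 167, 114, 142 and 176 CPM against 572, 518, 568 and 590.1 (log2 fold change −1.89, SE 0.12), the integrin gene Itga1 fell by 2.16 and Cx3cr1, a receptor of circulating effector cells, by 1.32. Klrg1, a marker of short-lived effector cells, gave 5 UMIs in all members (log2 fold change −1.70, adjusted p = 0.12). Cd69, which opposes exit from tissues, rose by 1.11 and Ly6c2 by 0.67.

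The 12 genes that rose most by the fixed rule included Id3 and reached beyond the lists. Ccr6, the receptor for CCL20, gave 8, 6, 18 and 45 UMIs in the members of control 1, control 2, KO 1 and KO 2 and 0, 5, 7 and 4 in the more numerous other cells (log2 fold change 4.80, SE 0.42). Nsg2, best known as an endosomal protein of neurons, rose by 4.10, Aff3, a nuclear protein of the AF4 family, by 3.75, and Lratd1 by 3.52. Arhgap5 and Tiam1, regulators of small GTPases, rose by 3.33 and 2.34, and Dlg4, a scaffold protein, by 2.68. Sostdc1, a secreted antagonist of BMP and Wnt signals, was at 45.0, 64.2, 64.7 and 240.0 CPM against 2.53, 11.6, 6.65 and 31.3 (log2 fold change 3.01, SE 0.20). Its value in KO 2 was the highest in both kinds of cell. Axin2, a target gene of Wnt signals, was at 67.6, 28.6, 25.9 and 23.5 CPM against 9.47, 3.70, 6.65 and 4.2 (log2 fold change 2.48, SE 0.36), and it was the only one of 7 tested Wnt and β-catenin genes past the test (list median 0.16). Nt5e, which encodes CD73 and acts after CD39 in making adenosine, rose by 2.33. The 12 that fell most included Entpd1, Havcr2, Ccl3, Ccl4, Gzma and Cd244a. Adgrg1, an adhesion receptor of cytotoxic lymphocytes, fell by 3.92, Prr5l by 3.72 and the Fc receptor chain gene Fcer1g by 3.98, and Sept4 gave 3 UMIs in all members (ratio 0.0388, counting interval 0.00798 to 0.114; 0.0763 without KO 2 and 0.0168 without KO 1).

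The 2 remaining genes of that rule, S100a8 and Retnlg, are neutrophil genes, and their difference came from the other cells. S100a8 was at 22.5, 7.14, 5.17 and 9.90 CPM in the members and at 1496, 9.72, 147 and 10.7 in the other cells, so that only control 1 and KO 1 differed widely. The whole list of 10 myeloid or leukemia genes, of which 3 of 7 tested fell, was at 296, 180.2, 212 and 230 UMIs per 1000000 in the members and at 2749, 665, 541 and 300 in the other cells. In the members its most abundant gene was Cst3 in each library, and Csf1r was at 0 in 3 of the 4. The part of such RNA in the differences was not tested.

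Of 11 genes of IL-2 and STAT5 signals, the feedback genes Socs1 and Socs3 rose by 1.07 and 0.86, and Cish and Pim1 fell by 1.74 and 0.98 (list median 0.07). Of 10 survival genes, Bcl2, which blocks apoptosis, was at 851, 1157, 898 and 835 CPM against 402, 436, 394 and 503, with no overlap (log2 fold change 1.09, SE 0.11). The pro-apoptotic genes Bcl2l11 and Bbc3 moved apart, by −0.80 and 1.32, and the list median was −0.08. Among 10 tested interferon-stimulated genes only Ifi27l2a passed, with 0.69 (median 0.11), among 14 glycolysis genes only Eno1, with 0.41 (median 0.01), and among 11 S phase genes only Mcm3, with −0.76 (median −0.46). Of 14 genes of T cell receptor signaling, Lat fell by 0.62 and Txk by 0.57 (median −0.10). Ribosomal protein genes rose in 66 of 80 cases and fell in 1, by a median of 0.30, and all 13 mitochondrial genes rose, by a median of 0.54. The median of the mitochondrial genes was 0.35 when cells with over 5% mitochondrial UMIs or under 1000 genes were left out, and the part of the higher mitochondrial share in the differences was not tested.

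**Figure D3:**
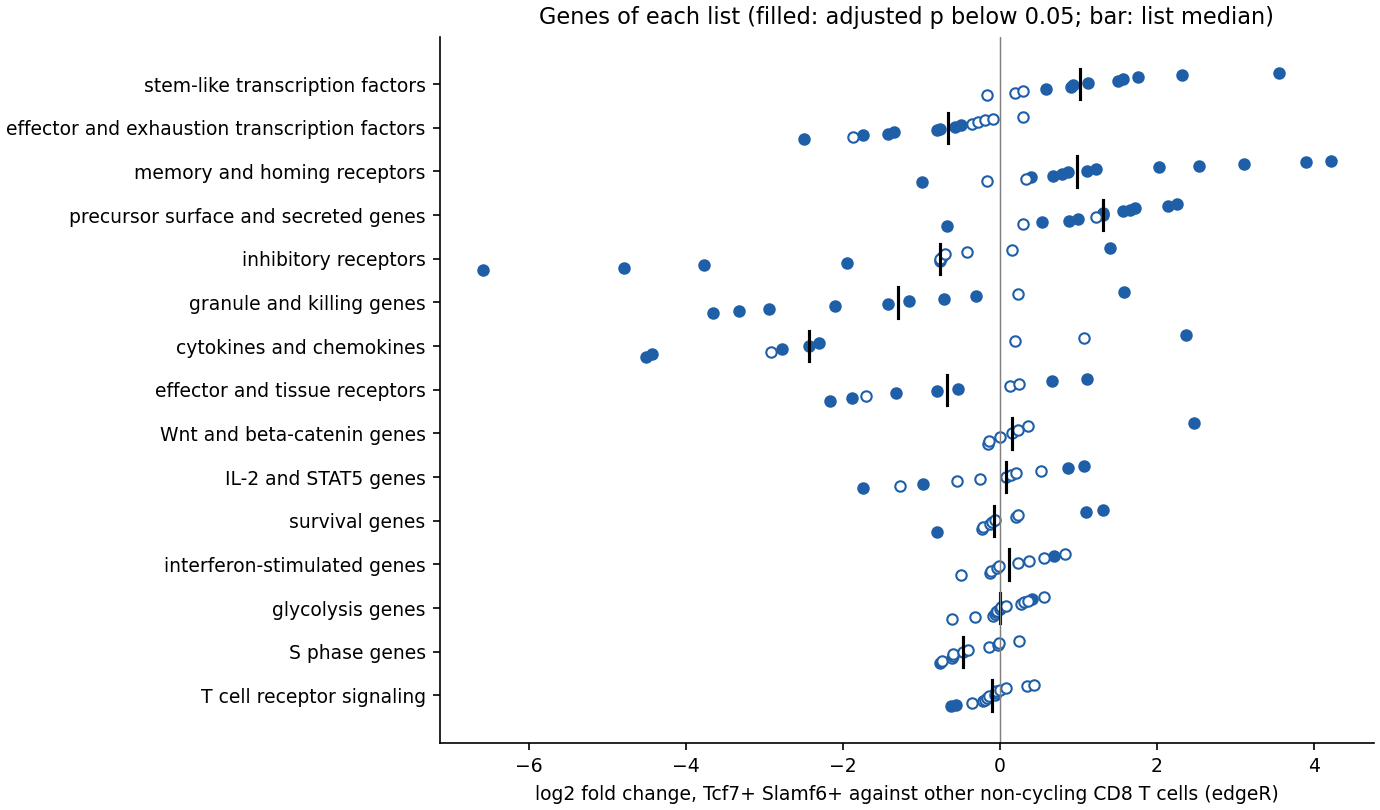
Log2 fold change of Tcf7+Slamf6+ cells against other non-cycling CD8+ Tc (x axis) for each tested gene of 15 lists (y axis), filled where the adjusted p was under 0.05, with the median of each list as a black bar. The leftmost points, Entpd1 and Havcr2, had 1 and 2 UMIs in the members, and their fitted values depend on the prior count. Medians lie above 0.9 for the stem-like factors, memory receptors and precursor genes and below −0.6 for the effector factors, inhibitory receptors, killing genes, cytokines and effector receptors.

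Genes that define other cells were looked for in the members. The NK cell genes Ncr1, Klrb1c and Klra8 were at 0 in the members of every library, where 3 counts would have been 1.89 UMIs per 1000000, but Ncr1 and Klra8 were also at 0 in the other non-cycling cells of every library. The whole NK list was at 92.8, 108, 123 and 87.3 UMIs per 1000000, nearly all of it Eomes, which Tc also express, and 3 of 3 tested genes were lower (median −3.98, or −2.44 with Klrb1c at its bound). The B cell genes Cd79a and Ms4a1 were at 0 as well, but Ms4a1 was also at 0 in the other non-cycling cells of every library. The B cell list was at 318, 865, 345 and 383 UMIs per 1000000 in the members against 353, 946, 311 and 320 in the other cells. Igkc was its most abundant gene except in KO 1 members, where it was Ighm, and Ighm alone of 4 tested genes rose, by 1.15 (list median −0.07). Of the CD4 helper genes, Il4 and Il17a were at 0 in the members of every library, but Il17a was also at 0 in the other non-cycling cells. Cd40lg and Foxp3 had UMIs in members of KO 2 only, and Zbtb7b in those of control 1, KO 1 and KO 2. Izumo1r, the most abundant, rose by 0.95 (list at 48.6, 50.5, 83.6 and 140 UMIs per 1000000, median 0.66, 1 of 2 tested genes higher). Of the γδ Tc genes 2 of 3 fell (median −1.87). The list was at 79.5, 28.8, 54.8 and 35.9 UMIs per 1000000 in the members, with Tcrg-C2 as its most abundant gene. Sox13 and Zbtb16 were at 0 in the members, but Sox13 was also at 0 in the other non-cycling cells of every library. Trdc UMIs were found in 5 members. None of 9 erythroid genes passed the test (median 0.17), with 247, 764, 13770 and 2583 UMIs per 1000000 in the members and Hbb-bs as the most abundant gene. The values of KO 1 and KO 2 came from the 3 members with over 100 globin UMIs.

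Against non-cycling CD8+ Tc that carried UMIs of Tox, Pdcd1 and Lag3 but of neither Tcf7 nor Slamf6, 767 in all, most of the tested stem-like, memory and precursor genes were higher in the members, and 7 of 13 effector factors, 7 of 9 killing genes and 5 of 6 cytokines were lower. This comparison asks how the members differ from cells with 3 exhaustion genes at once, and Tox, Pdcd1 and Lag3 were left out since they chose the other side. Of 7673 genes tested, 527 were higher (6.87%) and 459 lower (5.98%) in the members. Without control 1 the total was 1099, without KO 1 it was 557 and without KO 2 it was 628. Both comparisons share the members, so their counts are not independent. Ccr6, Nsg2 and Aff3 had no UMI in the Tox+Pdcd1+Lag3+ cells of any library and were at least 63.3-, 58.4- and 45.2-fold higher in the members, counted against a floor of 3 UMIs over that group. Without KO 2 the limits for Ccr6 and Aff3 were 39.2 and 26.9, and without KO 1 those for Ccr6 and Nsg2 were 41.5 and 35.9. Id3 was at 101, 254, 144 and 208 CPM in the members, with scaling factors fitted anew for this comparison, and at 1.38, 3.02, 0 and 4.31 in the Tox+Pdcd1+Lag3+ cells (log2 fold change 6.30, SE 0.31), and Sostdc1 rose by 6.56 and Arhgap5 by 4.53. Lratd1 gave 38 UMIs against 3, a ratio of 31.2 with a counting interval of 9.91 to 158, and of 52.8 without KO 1. Il7r was at 74.4, 10.6, 27.3 and 44.0 CPM in the Tox+Pdcd1+Lag3+ cells, and members were higher by 4.04 (SE 0.18), while Klf2 rose by 3.23 and Lef1 by 2.83.

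Genes lower in the members than in the Tox+Pdcd1+Lag3+ cells included Cd200r2 and Flt1, a receptor for VEGF, which had no UMI in any member and were at least 14.2- and 10.1-fold lower against a floor of 3 UMIs over the members. Without KO 2 the limits were 6.81 and 5.90, and without control 1 that for Flt1 was 5.83. Havcr2 was at 68.9, 195, 82.0 and 15.5 CPM in the Tox+Pdcd1+Lag3+ cells, a ratio over all libraries of 0.0157 (counting interval 0.00189 to 0.0572; 0.0248 without KO 2), and Entpd1 gave a ratio of 0.00721 (0.000182 to 0.0404). Without KO 2 no Entpd1 UMI was left in the members, and the upper limit of its ratio was 0.0581. The chemokine gene Ccl3 fell by 5.16, Ccl4 fell by 4.97 and Fcer1g by 4.62, and Sept4 gave a ratio of 0.0308 (0.00631 to 0.0912; 0.0568 without KO 2 and 0.0141 without KO 1). Of the lists, 9 of 12 stem-like factors rose (median 2.01), 10 of 13 memory receptors (1.26, Il2rb lower) and 11 of 12 precursor genes (1.73, Il21r lower). Lower were 7 of 13 effector factors (−0.81), 5 of 9 inhibitory receptors (−0.93, Btla higher), 7 of 9 killing genes (−1.37) and 5 of 6 cytokines (−2.80), beside a median of 0.00 for all genes. Receptors of effector and tissue-resident cells were even, with 3 of 9 higher and 3 lower (0.04).

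The Tcf7+Slamf6+ cells differed among themselves. Of the 272 members, 165 (60.7%) carried UMIs of both Tox and Pdcd1, 62 of Tox alone, 9 of Pdcd1 alone and 36 (13.2%) of neither. Those with both were 50.0%, 35.9%, 57.0% and 74.2% of members in control 1, control 2, KO 1 and KO 2, and the lowest share was in the library with the lowest depth. Il7r and Xcl1 were found together in 63 members, Il7r alone in 133, Xcl1 alone in 34 and neither in 42. The order of the libraries by Xcl1, 8.82%, 25.6%, 32.9% and 48.3% of members, was not that by Il7r, 91.2%, 53.8%, 72.2% and 72.5%. An Id3 UMI was found in 114 members (41.9%). A single T cell receptor β variable gene was seen in 11, 8, 17 and 38 members, and these used 8, 8, 10 and 15 different genes, with at most 6 cells on the same gene.

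Since Il7r was carried by 196 members and not by 76, both kinds were compared within each mouse, with Il7r itself not tested. Of 3036 genes, 21 (0.692%) passed the test, 12 higher and 9 lower in members with Il7r, and 24 passed without control 1, 13 without KO 1 and 3 without KO 2. Bcl2 was at 951, 1123, 1107 and 984 CPM in members with Il7r of control 1, control 2, KO 1 and KO 2 and at 289, 1213, 428 and 494 in those without (log2 fold change 0.90, SE 0.19, adjusted p = 0.0077). Control 2 was the library in which Bcl2 went the other way. The IL-18 receptor gene Il18r1 was at 462, 398, 385 and 320 CPM against 202, 278, 190.3 and 151, higher in each mouse (log2 fold change 0.97, SE 0.21, adjusted p = 0.0072). The muscle gene Ttn, the vesicle tethering gene Vps54, the calcium channel gene Itpr1 and the chromatin remodeling gene Rsf1 were also higher, by 1.97, 1.79, 1.41 and 1.28, and they missed the threshold in 2 of 10, 5 of 10, 7 of 10 and 8 of 11 alternatives. The 4 globin genes Hba-a1, Hba-a2, Hbb-bs and Hbb-bt passed too, from the 3 members with over 100 globin UMIs, and without cells of that kind 13 genes passed.

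Of the genes lower in members with Il7r, Eomes was at 231, 132, 190.3 and 197 CPM in members without Il7r and at 58.5, 56.9, 91.7 and 31.8 in those with it, with no overlap (log2 fold change −1.84, SE 0.30, adjusted p = 0.00012). Ccl5 was at 17470, 5350, 3120 and 3573 CPM against 6761, 2531, 1148 and 984 (log2 fold change −1.45, SE 0.15), lower with Il7r in each mouse. Ccl4 differed by −4.08, with single cells holding 20 of the 23 Ccl4 UMIs of control 2 members and 22 of the 43 of KO 2 members. Gzmb differed by −2.02, Ctla2a, a protease inhibitor gene of activated Tc, by −1.11 and the actin gene Actg1 by −0.76, of which Gzmb missed the threshold in 4 of 7 alternatives and Actg1 in 6 of 12, while Gzma (−5.84) rested on the same few cells named above. Xcl1 was lower with Il7r in control 2, KO 1 and KO 2, at 114, 198 and 201 CPM against 380, 409 and 1035, and control 1 had no Xcl1 UMI in its 3 members without Il7r (log2 fold change −1.80, SE 0.24). Id3, Tox and Pdcd1 did not pass the test (adjusted p = 0.74, 0.96 and 0.84). Of the lists, 1 of 9 memory receptors, 1 of 6 survival genes and the 4 globin genes were higher, and 1 of 9 effector factors, 1 of 12 precursor genes, 2 of 9 killing genes and 2 of 3 cytokines were lower. Members without Il7r numbered 3, 18, 22 and 33, and depth affects which member shows an Il7r UMI, whose part was not tested beyond thinning to 2000 UMIs, where 12 genes passed, 9 of them shared.

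The share of Tcf7+Slamf6+ cells was compared between the genotypes, since the study asked what deletion of TIM-3 in CD8+ Tc does to such cells. They made up 6.90% (95% Wilson interval 4.98 to 9.48) of CD8+ Tc in control 1, 3.07% (2.25 to 4.16) in control 2, 5.12% (4.13 to 6.34) in KO 1 and 12.5% (10.6 to 14.7) in KO 2. Such intervals cover counting error only. KO 2 was the highest, and KO 1 lay between the control libraries. KO averaged 8.81% ± 5.22 (SD, n = 2) against 4.98% ± 2.71 (SD, n = 2) for control, and the log2 ratio of 0.82 was smaller than the pooled spread of 0.87 within a genotype (exact two-sided permutation test, p = 0.667, where 0.33 is the smallest p that 2 libraries against 2 allow). With the same rule at 2000 UMIs per cell, the shares were 3.04%, 2.50%, 3.36% and 5.50%, so that the genotypes no longer overlapped (log2 ratio 0.68, exact permutation test, p = 0.33). At 1000 UMIs per cell they were 1.61%, 0.898%, 0.985% and 2.12%, with KO 1 again between the controls (log2 ratio 0.31, exact permutation test, p = 0.667). Without KO 1, the library in which Havcr2 was not lower than in control 1, the ratio was 1.33, and without KO 2 it was 0.04. Without control 1 it was 1.52, and without control 2 it was 0.35.

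**Figure D4:**
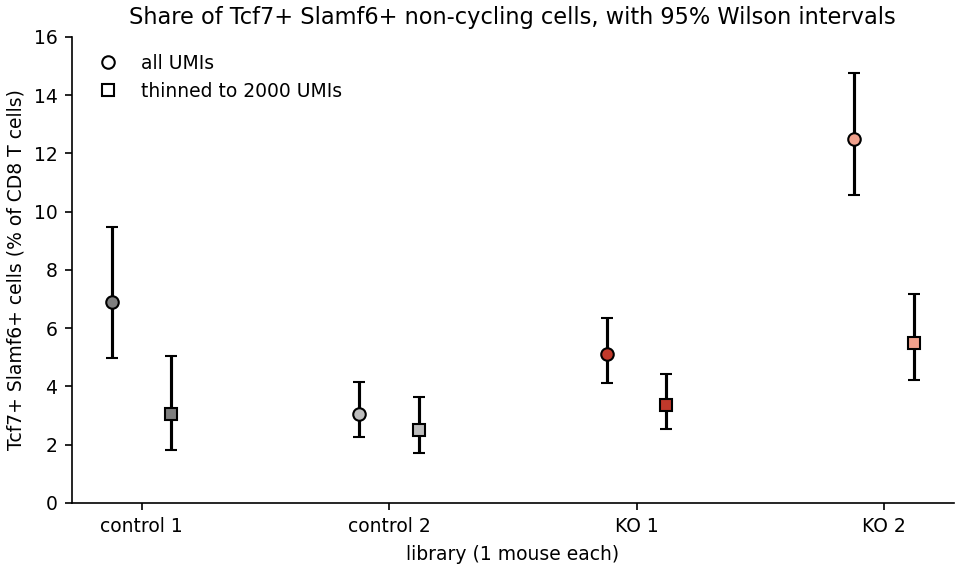
Percent of CD8+ Tc that were Tcf7+Slamf6+ and non-cycling (y axis) in each library (x axis), with all UMIs (circles) and after thinning to 2000 UMIs per cell (squares), with 95% Wilson intervals as bars. KO 2 is highest in both, at 12.5% and 5.50%, and KO 1 lies between the controls with all UMIs and above both at 2000 UMIs.

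Within the Tcf7+Slamf6+ cells, 11 of 4474 genes (0.246%) differed between the libraries labelled by genotype, 7 higher and 4 lower in KO, by edgeR's quasi-likelihood test with n = 2 against 2. Scaled by DESeq2's size factors the split was 9 higher and 10 lower, and the total was 24 without control 1, 79 without control 2 and 16 without KO 1. Ccl5 was at 1640 and 1728 CPM in KO 1 and KO 2 and at 8379 and 3865 in control 1 and control 2 (log2 fold change −1.86, SE 0.32, adjusted p = 0.0056). Klf2 was at 389 and 283 CPM against 826 and 753 (log2 fold change −1.25, SE 0.26, adjusted p = 0.044). Both genes separated the genotypes, and for Klf2 the other non-cycling cells did too, at 150 and 202 CPM against 330 and 314. Gzmk was at 12.8 and 28.2 CPM against 183 and 42.6 (log2 fold change −2.44, SE 0.49, adjusted p = 0.032), with 41 of the 47 control UMIs in control 1. Under the alternative settings Ccl5 missed the threshold in 3 of 12, Klf2 in 7 of 12 and Gzmk in 5 of 11. The 13 mitochondrial genes had a median log2 fold change of 0.51 in KO, against −0.002 for all genes, and 0 passed. This median was 0.29 without control 1 and 0.89 without control 2. With cells of over 5% mitochondrial UMIs or under 1000 genes left out, 1 gene passed the genotype test. The part of the mitochondrial share in these differences was not tested.

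Of the other genes past this test, Ifitm1 and the globin genes rested on few cells. Ifitm1 gave 1 and 0 UMIs in KO 1 and KO 2 and 65 and 21 in control 1 and control 2. The latter came from 3 and 2 cells, with 38 and 20 UMIs in single cells. The ratio of KO to control was 0.00348 per UMI sequenced, with a counting interval of 8.72e-05 to 0.0199 that leaves out this spread between cells and mice. Without KO 2 the ratio was 0.0111 (0.000278 to 0.0634) and without control 1 it was 0.00542. Penk, the enkephalin precursor gene, gave 15 and 84 UMIs in 6 and 16 members of KO 1 and KO 2 and none in the controls, at least 9.89-fold higher against a floor of 3 UMIs over the control members. This limit was 3.76 without control 1, 6.13 without control 2 and 4.77 without KO 2. The globin genes Hba-a1, Hba-a2, Hbb-bs and Hbb-bt were higher in KO, and 1080 of the 1094 Hba-a1 UMIs of KO 1 members and 270 of the 296 of KO 2 members came from the 3 cells with over 100 globin UMIs. With such cells left out, Hba-a1 (−1.14), Hbb-bs (−1.05) and Hbb-bt (−1.33) were lower in KO. The remaining genes, outside the naming rule and chosen after their values were seen, were Nrp1, at 240.4 and 284 CPM against 93.8 and 85.2 (log2 fold change 1.55, adjusted p = 0.015), and Nrgn, at 261 and 496 against 67.0 and 178 (1.76, adjusted p = 0.044).

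None of the 3 TPEX markers passed the test between the libraries by genotype. Id3 was at 143 and 206 CPM in KO 1 and KO 2 and at 98.3 and 249 in control 1 and control 2 (log2 fold change 0.13, SE 0.33, adjusted p = 0.97), and Il7r was at 614 and 508 against 942 and 405 (−0.29, SE 0.31, adjusted p = 0.95). Xcl1 was at 248 and 442 CPM against 22.3 and 242 (log2 fold change 1.61, SE 0.48, adjusted p = 0.29). Both KO values of Xcl1 were above both control values, with control 2 and KO 1 close together. Tox was at 504 and 798 CPM against 402 and 433 (0.65, SE 0.28, adjusted p = 0.63), and Pdcd1 at 310 and 326 against 170 and 213 (0.75, SE 0.26, adjusted p = 0.42). Tnfsf8 came close to the threshold, at 327 and 386 CPM against 143 and 170.5 (log2 fold change 1.21, SE 0.27, adjusted p = 0.056). A p above the threshold in 2 libraries against 2 does not show that the levels were alike. Of the lists, 1 of 10 stem-like factors (Klf2), 1 of 8 killing genes (Gzmk) and 1 of 2 cytokines (Ccl5) were lower and 4 of 4 erythroid genes were higher.

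**Figure D5:**
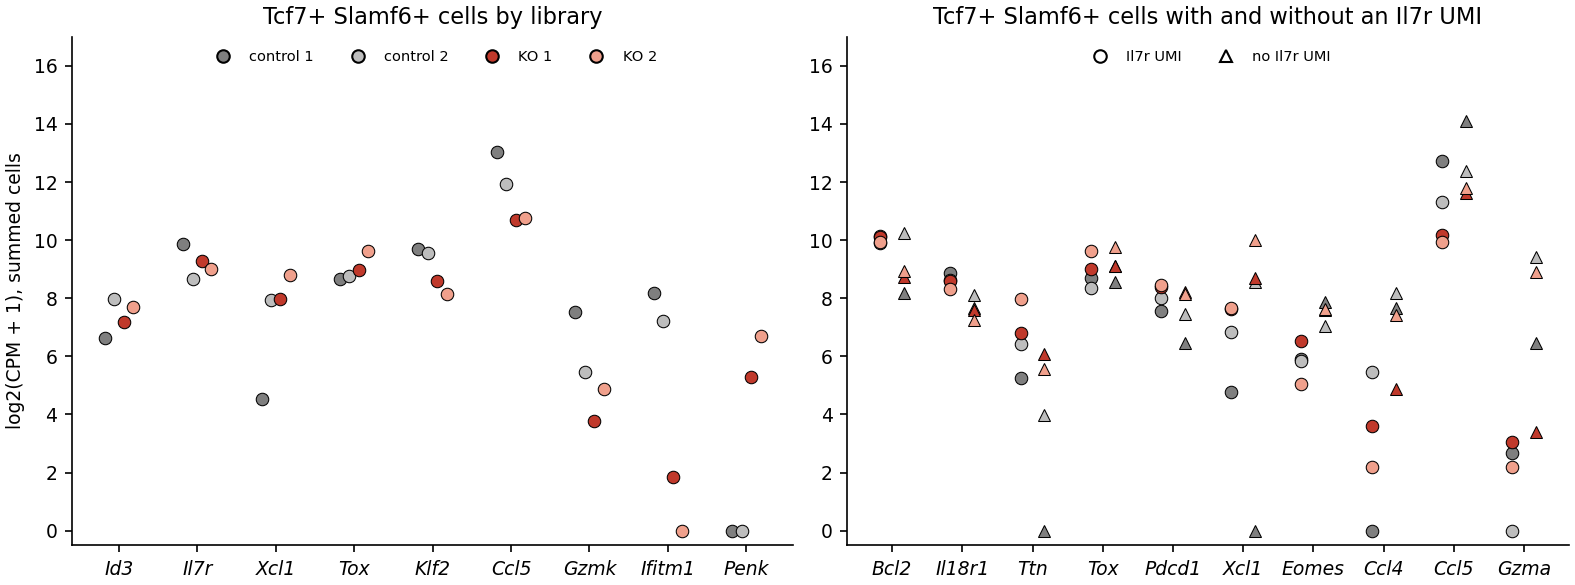
Level as log2(CPM + 1) of summed Tcf7+Slamf6+ cells (y axis), on the left for 9 genes in each library and on the right for 10 genes in members with (circles) and without (triangles) an Il7r UMI, with 1 color per library. On the left Klf2, Ccl5, Ifitm1 and Penk separate control (grey) from KO (red) libraries while Id3 and Il7r do not, and on the right Eomes and Ccl5 lie lower in members with Il7r of the same library.

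A test of the interaction, blocked by mouse, asked whether the genotype difference within the Tcf7+Slamf6+ cells was that within the other non-cycling CD8+ Tc. Of 8940 genes, 41 (0.459%) passed, 23 with a higher and 18 with a lower KO to control ratio in the members, and without that block 0 did, while 369 had an unadjusted p under 0.05 there and DESeq2 called 5. The higher ones included Alas2 and the 4 globin genes and the neutrophil genes S100a8 and S100a9, and without cells of 100 or more globin UMIs 14 higher and 17 lower genes passed. Without control 1 the total was 14, without control 2 it was 76, without KO 1 it was 24 and without KO 2 it was 23. Ccl5 (−1.72, SE 0.11) and Gzmk (−2.23, SE 0.37, adjusted p = 1.9e-06) had the lower ratio in the members, where Ccl5 was at 21680 and 19710 CPM in the other cells of KO 1 and KO 2 and at 20270 and 23000 in those of the controls. Pdcd1 (1.01, SE 0.23, adjusted p = 0.0031) and Tnfsf8 (1.04, SE 0.26, adjusted p = 0.018) had the higher one. Pdcd1 was at 313 and 329 CPM in the members and 352 and 311 in the other cells of KO 1 and KO 2, against 171 and 214 in the members and 424 and 346 in the other cells of control 1 and control 2. For Klf2 the interaction of −0.40 did not pass (adjusted p = 0.65).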

How the data were processed

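Droplet single-cell 3′ RNA-seq libraries (10x Genomics) of spleen Tc from 4 mice were used. The authors deposited whole-number, unnormalized UMI counts per gene and cell barcode for each library, made with Cell Ranger 6.1.2 against mm10 per the submitters' processing notes; counting details beyond this were not given in the sources used here. The 4 libraries held 1511, 6737, 4328 and 3208 barcodes and 17693991, 55045903, 38386626 and 31449644 gene UMIs (control 1, control 2, KO 1, KO 2), of which 1213, 4437, 3431 and 2551 barcodes were kept. The H-2Kb antibody tag was kept out of gene totals. Replicate libraries differed beyond sampling noise. Positions are those of GENCODE M21 (GRCm38), in which 32158 of 32285 gene identifiers were found.

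Counts were summed per library and kind of cell and tested with edgeR 4.0.16 (R 4.3.3; quasi-likelihood test, TMM scaling, Benjamini-Hochberg adjustment over all genes tested, threshold 0.05), with the mouse as a block where both kinds of cell came from the same mouse and without a block between genotypes. The study's own test of shares took cells as units and was replaced by an exact permutation test over the 4 libraries. Because 1 mouse gave 1 library, replicate error is the spread between mice, including any technical part. The members, the 21 lists of 229 genes (Mx1 had no match) and the tests were chosen with earlier results of these data known. Genes that chose cells were not tested between kinds of cell or for the interaction. These were Tcf7, Slamf6, Mki67, Top2a, Cd3d, Cd3e, Cd3g, Cd8a, Cd8b1, Cd4 and Klf1, with Il7r in its own split and Tox, Pdcd1 and Lag3 in theirs. The fit between genotypes within the members left out no gene for this reason, and its values for genes of the rule are not reported here. Beside markers and list genes, the text names those of largest fold change with adjusted p below 0.05. Between kinds of cell they also had the same direction in all 4 libraries and a mean of at least 20 CPM in the higher group. They were 12 each way against the other non-cycling cells, and up to 8 against the Tox+Pdcd1+Lag3+ cells and in the Il7r split. For the genotype and the interaction up to 5 each way were named. There the libraries of the genotypes did not overlap, for the interaction in the ratio of members to other cells, and no CPM limit was set. Receptor and immunoglobulin variable, mitochondrial, ribosomal and unnamed genes were passed over. Some named genes are not reported here. Doublets were scored with Scrublet (scanpy 1.11.5), whose own threshold called 7, 105, 1 and 6 of the kept cells. As that marked too few cells in some libraries, the highest-scoring 0.8% per 1000 barcodes were left out as an alternative instead, and all cells stayed in otherwise. Shares were compared after thinning cells to 2000 UMIs. Alternatives were DESeq2 1.42.0 and its size factors, no filter on low counts, stricter cell filters, doublet removal, thinning, other comparison cells, the block, leaving out each library and, chosen after seeing the data, leaving out cells with 100 or more globin UMIs and count ratios and floors in fewer libraries. Scripts (Python 3.11.15, numpy 2.4.6, scipy 1.17.1, pandas 2.3.3, matplotlib 3.10.9) were tested on simulated data.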

Additional observations from a re-analysis of the deposited data

Results flagged for a closer look

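Of the 41 genes past the interaction test of edgeR, the 10 chosen by the naming rule are given here, and most rested on few UMIs. In each the difference between KO and control within the Tcf7+Slamf6+ cells departed from that within the other non-cycling CD8+ Tc. Fitted values of genes at 0 in a group depend on the prior count and are no bound.

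Penk, the enkephalin precursor gene, had an interaction of 9.44 (adjusted p = 0.00041), with 0, 0, 15 and 84 UMIs in the members of control 1, control 2, KO 1 and KO 2, and missed the threshold in 5 of 12 alternatives. Ifitm1, an interferon-inducible membrane protein gene, had −6.17 with 65, 21, 1 and 0 UMIs, and missed it in 2 of 12. Bicd1, an adaptor of dynein transport, had 8.31 (adjusted p = 0.049) with 0, 0, 16 and 16 UMIs, the latter in 13 and 14 cells, and missed it in 9 of 11. H2-Ab1, an MHC class II gene, had 8.49 (adjusted p = 0.036) with 0, 0, 2 and 12 UMIs in the members and 15, 215, 28 and 52 in the other cells, and missed it in 8 of 11.

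The erythroid gene Alas2 had 11.35 with 0, 0, 30 and 9 UMIs, of which 29 and 7 lay in members with over 100 globin UMIs, and Apol11b had 11.26 with 0, 0, 35 and 3 UMIs, of which 35 lay in such members of KO 1. Trdc, the δ chain constant gene, had −6.13 (adjusted p = 0.014) with 6, 1, 3 and 6 UMIs in 5 members and 0, 1, 7 and 45 UMIs in the other cells. Trat1, a receptor-associated adaptor gene, had −3.68 (adjusted p = 0.021) with 9, 2, 8 and 1 UMIs in the members and 2, 13, 42 and 35 in the other cells. Wdr95 had −3.11 (adjusted p = 0.036) with 11, 1, 1 and 3 UMIs, and Zfp120 had −2.33 (adjusted p = 0.0097) with 12, 8, 6 and 12. Alas2 missed the threshold in 1 of 10 alternatives, Apol11b in 3 of 10, Trdc and Trat1 in 5 of 11 each, Wdr95 in 8 of 12 and Zfp120 in 7 of 12.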

How the results depend on the processing

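The log2 ratio of the share of Tcf7+Slamf6+ cells kept its sign in all alternatives, between 0.04 without KO 2 and 1.52 without control 1. Against the other non-cycling CD8+ Tc, the 967 genes became 503 with DESeq2, 622 with stricter cell filters (599 shared), 477 with cells thinned to 2000 UMIs (444 shared), 1862 against all other CD8+ Tc, and 453 (without KO 2) to 1121 (without control 1) when libraries were left out. The 986 against the Tox+Pdcd1+Lag3+ cells became 498 with DESeq2, 507 after thinning (476 shared) and 557 to 1099 by library, lowest without KO 1. The 21 of the Il7r split became 7 with DESeq2, 12 after thinning, 13 without cells of 100 or more globin UMIs, and 3 (without KO 2) to 24 by library. The 11 genotype genes became 19 with DESeq2 size factors, 34 with no filter on low counts, 2 with DESeq2, 1 with stricter cell filters, 5 without the highest doublet scores, 6 after thinning, 4 without globin cells, and 9 to 79 by library, highest without control 2. Without globin cells Hbb-bt (−1.33), Hbb-bs (−1.05) and Hba-a1 (−1.14) reversed, as their UMIs lay in those cells. The 41 interaction genes became 5 with DESeq2, 27 with stricter filters, 7 after thinning and 14 (without control 1) to 76 (without control 2) by library. Fewer samples or fewer UMIs entered the fits by library and after thinning, yet some counts rose without a control library. The cause of these moves was not tested.

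With the replicate block, 24 genotype genes passed in place of 11. With no replicate block the counts were 491 for the other non-cycling cells, 590 for the Tox+Pdcd1+Lag3+ cells, 8 for the Il7r split and 0 for the interaction, where the block is the mouse. Between genotypes a number is only a number: libraries with the same number had a correlation of deviations of 0.0406. With the block the log2 ratio of the share was 0.81 by edgeR. Low depth in control 2 limits values of genes with few UMIs.

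Of single genes, S100a8 and Retnlg missed the threshold against the other non-cycling cells in 2 of 14 and 1 of 10 alternatives, and Id3 (3.45 to 5.63), Il7r (1.84 to 2.57) and Xcl1 (1.87 to 3.05) passed in every one of 14.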
